A study of Mus musculus with 6 samples.

Results

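MiR-122, the miRNA most closely tied to hepatocytes, was followed in mouse liver through both of its mature arms, mmu-miR-122-5p and mmu-miR-122-3p (miR-122-5p and miR-122-3p from here on). The members were taken by name, as the rows of the deposited miRNA values that carry these names, and they are 2 of the 1546 mature miRNAs listed. Small RNA sequencing was carried out on liver tissue, with 3 libraries in each of 2 groups. The groups were mice fed a normal diet (NC) and mice with metabolic dysfunction-associated fatty liver disease (MAFLD). All were male C57BL/6 mice, young adults when feeding began, and the MAFLD mice had been given a high-fat diet, which is what made the model. Each library is labelled as liver tissue of 1 replicate, and nothing in the labels or methods describes pooling of livers. That each library is 1 mouse is not stated either, and a library is called a liver from here on. The question that these samples address is whether the level of miR-122, its place among the liver miRNAs and the balance of its arms differed between the diets.

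MiR-122 is made almost exclusively in hepatocytes, where liver-enriched transcription factors such as HNF4A drive its gene, and it is among the most abundant miRNAs of these cells. The 5p arm is the guide strand that is loaded into Argonaute and represses target mRNAs, while the 3p arm is the passenger strand that is mostly degraded. Mice that lack miR-122 develop steatosis, inflammation and later tumours of the liver, the miRNA is known to influence cholesterol and lipid genes, and it appears in the circulation when hepatocytes are injured.

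The levels of miR-122 were read against the miRNAs that stood next to it in these livers. The mature sequences of the neighbours above miR-122-5p, and of miR-148a-5p as the other arm of miR-148a, were taken from RefSeq (GRCm38.p6). In it 1312 of the 1546 listed names were matched. The sequences are printed 5′ to 3′, with the seed (bases 2 to 8, the stretch that pairs with targets) in capitals. The order of the levels and the share of each library turn on miR-148a-3p, miR-192-5p and miR-21a-5p. The arms of miR-148a come from chromosome 6 (minus strand, 51269829 to 51269850 for the 3p arm and 51269867 to 51269888 for the 5p arm), miR-192-5p from chromosome 19 (plus strand, 6264857 to 6264877) and miR-21a-5p from chromosome 11 (minus strand, 86584120 to 86584141).
mmu-miR-148a-3p: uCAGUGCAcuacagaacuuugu
mmu-miR-148a-5p: aAAGUUCUgagacacuccgacu
mmu-miR-192-5p: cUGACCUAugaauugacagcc
mmu-miR-21a-5p: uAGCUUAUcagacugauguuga
No 2 of these share a seed, so no 2 of them fall in the same seed family. MiR-148a-3p is a miRNA of liver and other epithelia with roles in lipid metabolism, miR-192-5p is an epithelial miRNA of liver, gut and kidney, and miR-21a-5p is induced by injury and inflammation in many tissues.

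The hairpin of miR-122 is encoded by Mir122 (ENSMUSG00000065402.1) on chromosome 18 of GRCm38, between 65248861 and 65248926 on the plus strand, a length of 66 bases. In GENCODE M21 this interval lies inside an exon of a lincRNA on the same strand (exon 65245359 to 65252621), so the hairpin is exonic in a non-coding transcript. The nearest coding genes were Nedd4l, which ends 31033 bases before the hairpin, and Alpk2, which lies 16603 bases beyond it on the minus strand. RefSeq also places a second miRNA gene, Mir122b, within the same interval (65248863 to 65248921). Its listed products were almost absent, with 0, 0 and 1 reads of miR-122b-5p in NC livers and 3, 3 and 0 in MAFLD livers. MiR-122b-3p had 1 read in all 6 livers together.

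The deposited values are CPM values (counts scaled to a fixed total), which give each miRNA's reads relative to the reads on all listed miRNAs in its library. The libraries held between 1336935 and 4685712 miRNA reads, and 3 reads, taken as the smallest level that the depth can show, corresponded to 0.640 to 2.24 CPM. A single miRNA, miR-148a-3p, took between 46.8% and 71.4% of each library, and a change in this share moves the CPM of all other miRNAs. Of the 1546 miRNAs, 501 reached a mean of 1 CPM and were tested, and both arms of miR-122 were among them. Across these 501 the median log2 fold change (MAFLD against NC, on log2(CPM + 1)) was 0.43, and it was 0.04 when the libraries were scaled by the median ratio over miRNAs in place of the total. A change is therefore read relative to these shifts, and other cell types than hepatocytes are present in the tissue, where fewer cells of a type and less RNA per cell cannot be told apart. Intervals given for single libraries are 95% Wilson intervals and cover counting error only. Group comparisons used limma across all tested miRNAs with Benjamini-Hochberg adjustment, and an exact two-sided permutation test for single values, in which 3 livers against 3 cannot give a p below 0.1.

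MiR-122-5p was abundant in every liver, and its CPM did not differ between the diets beyond the spread of the livers. It was read 107488, 85420 and 113840 times in NC replicates 1, 2 and 3, which is 42159, 54430 and 85150 CPM. In MAFLD replicates 1, 2 and 3 it was read 187988, 258631 and 103979 times, or 70527 (70221 to 70836), 55196 (54989 to 55403) and 67758 (67361 to 68157) CPM. The NC livers spread widely, by 2.02 times from the lowest to the highest, while the MAFLD livers spread by 1.28 times and all fell within the NC range. The mean was 60580 ± 22146 CPM in NC and 64494 ± 8170 CPM in MAFLD (SD, n = 3 each), a ratio of 1.06. The log2 fold change was 0.14 (SE 0.27, 95% interval -0.43 to 0.72), with an adjusted p of 0.800 in limma, and the exact permutation test gave p = 0.6. Only 1 of the 501 miRNAs passed an adjusted p of 0.05 (0.2%), namely miR-802-5p, and 63.5% of the miRNAs had a larger log2 fold change than miR-122-5p.

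The CPM of miR-122-5p was low where the share of miR-148a-3p was high. MiR-148a-3p took 71.4%, 63.3% and 48.5% of the reads in NC replicates 1, 2 and 3 and 46.8%, 56.7% and 51.6% in the MAFLD livers. The liver with the largest share of miR-148a-3p was also the liver with the lowest CPM of miR-122-5p. Across the 6 livers the CPM of the pair had a Pearson correlation of -0.93 and a Spearman correlation of -0.94, on points that share their library totals, of which both are parts.

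When miR-148a-3p was left out of the total, miR-122-5p took 14.7%, 14.8% and 16.5% of the remaining reads in the NC livers and 13.2%, 12.8% and 14.0% in the MAFLD livers. The groups did not overlap, with every MAFLD liver lower, and 38 of 500 miRNAs (7.6%) separated in this direction under the same total. The mean was 15.4% ± 1.01 in NC and 13.3% ± 0.628 in MAFLD (SD, n = 3 each). The difference of -2.03 percentage points had p = 0.1 in the exact permutation test, the smallest that these samples allow. In limma the log2 fold change was -0.20 (SE 0.12, 95% interval -0.47 to 0.06), with an adjusted p of 0.403.

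Scaling by the median ratio gave the same order of the groups. MiR-122-5p then stood at 66650, 70156 and 67920 scaled CPM in the NC livers and at 54658, 57268 and 51845 in the MAFLD livers. The NC livers lay close together and all above the MAFLD livers, and 46 of 501 miRNAs (9.18%) separated in this direction under this scaling. The log2 fold change was -0.32 (SE 0.16, 95% interval -0.67 to 0.02), with an adjusted p of 0.304 in limma. The direction of the change in miR-122-5p thus depended on the scaling, being slightly higher in MAFLD in CPM and lower in MAFLD under both other scalings, and in none of them did it pass the test.

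**Figure D1:**
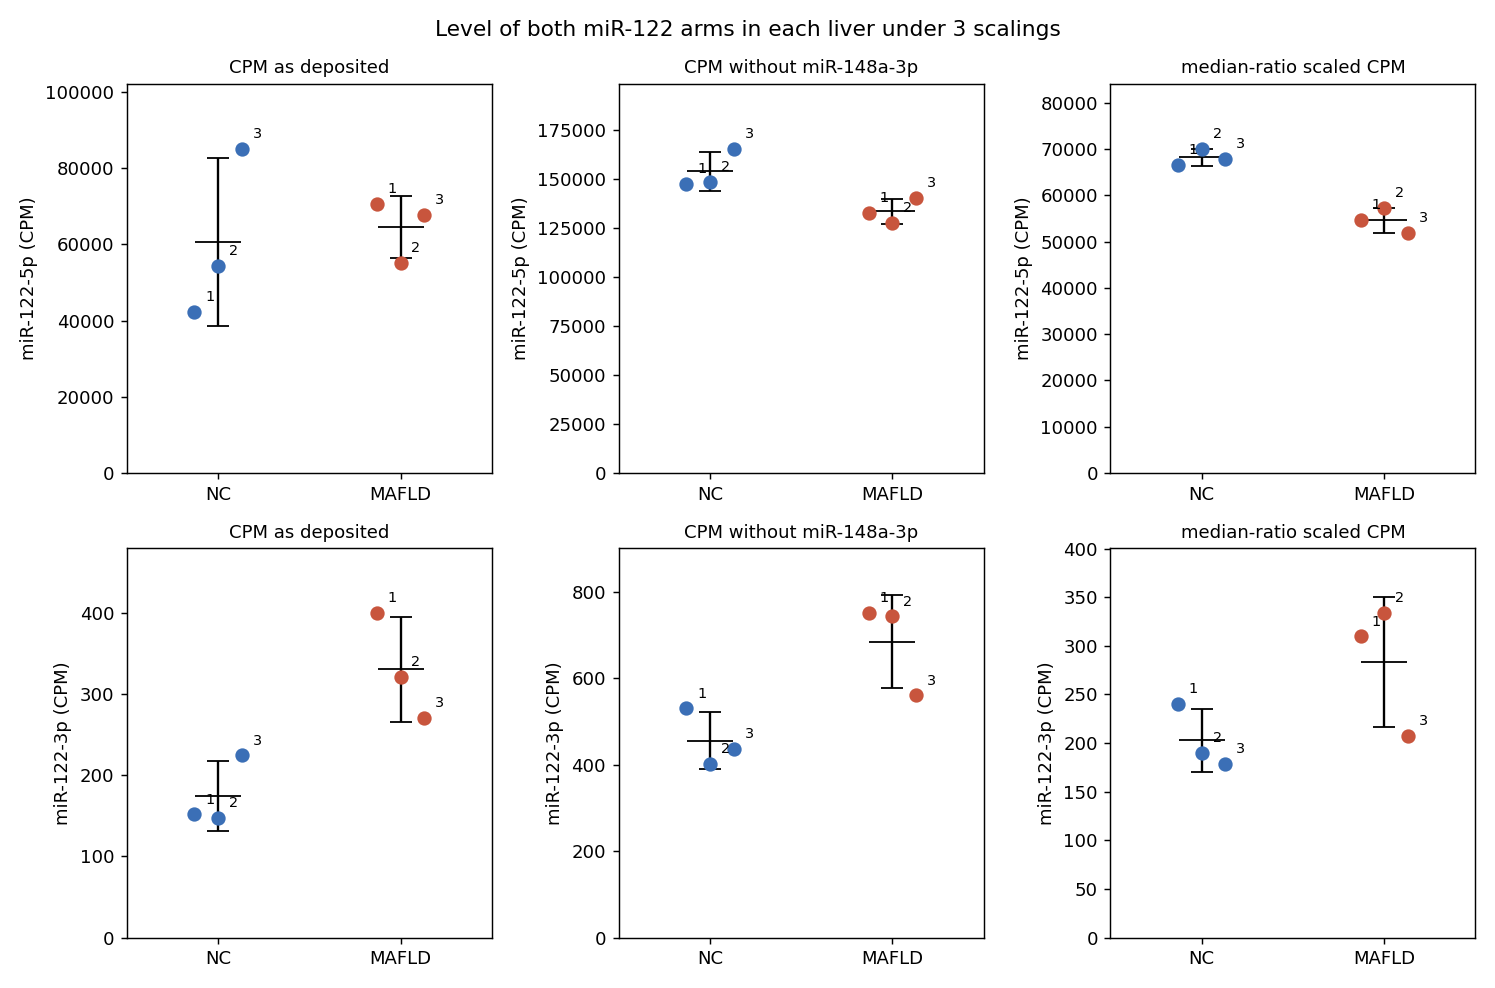
Level of miR-122-5p (top row) and miR-122-3p (bottom row) in each of the 6 livers, as deposited CPM, as CPM without miR-148a-3p in the total and as median-ratio scaled CPM; points are livers with their replicate numbers, and bars are the mean and SD of 3 livers. The groups overlap for miR-122-5p in CPM, where NC runs from 42159 to 85150, and separate with MAFLD lower under the other scalings, while miR-122-3p is higher in the MAFLD livers and overlaps only after median-ratio scaling.

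MiR-122-3p, the passenger arm, was rarer by far and higher in the MAFLD livers in CPM. It was read 387, 231 and 300 times in NC replicates 1, 2 and 3, or 152 (137 to 168), 147 (129 to 167) and 224 (200.4 to 251) CPM. In the MAFLD replicates it was read 1065, 1506 and 416 times, or 399.6 (376 to 424), 321 (306 to 338) and 271 (246 to 298) CPM. Every MAFLD liver was above every NC liver, although the counting intervals of NC replicate 3 and MAFLD replicate 3 overlapped. Of the 501 miRNAs, 76 (15.2%) separated in this direction. The mean was 174 ± 43.3 CPM in NC and 331 ± 64.7 CPM in MAFLD (SD, n = 3 each), a ratio of 1.90. The log2 fold change was 0.93 (SE 0.37, 95% interval 0.15 to 1.71), its unadjusted p ranked 52 among the 501, and the adjusted p was 0.212 in limma. The exact permutation test gave p = 0.1. The adjusted p was 0.0142 when NC replicate 3 was left out, with a log2 fold change of 1.12, and 114 miRNAs passed in that fit. Its NC side is replicates 1 and 2, the livers with the largest shares of miR-148a-3p (71.4% and 63.3%).

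The higher level of miR-122-3p was smaller under the other scalings. Without miR-148a-3p in the total it stood at 530, 401 and 436 CPM in NC and at 750, 743 and 560 CPM in MAFLD. These groups did not overlap, which held for 70 of 500 miRNAs (14%) in this direction, and the log2 fold change was 0.58 (SE 0.24, limma adjusted p = 0.206). After median-ratio scaling the values were 240.0, 189.7 and 179 in NC and 309.7, 333 and 207 in MAFLD. There MAFLD replicate 3 fell below NC replicate 1, and the log2 fold change was 0.46 (SE 0.24, limma adjusted p = 0.326).

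The levels of the arms were also set against each other from liver to liver, across both groups and without a test. Over the 6 livers the Pearson correlation of the log2 levels of miR-122-5p and miR-122-3p was 0.52 and the Spearman correlation was 0.54, on points that share the library totals. After median-ratio scaling the Pearson correlation was -0.54.

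The ratio of the arms does not depend on how the libraries are scaled, since both arms are read in the same library. There were 278, 370 and 379 reads of miR-122-5p for each read of miR-122-3p in NC replicates 1, 2 and 3, and 177, 172 and 249.9 in MAFLD replicates 1, 2 and 3. Every MAFLD liver had a lower ratio than every NC liver, with MAFLD replicate 3 nearest to NC replicate 1. The mean ratio was 342 ± 56.1 in NC and 199 ± 43.8 in MAFLD (SD, n = 3 each), so the ratio in MAFLD was 0.582 of that in NC. The exact permutation test gave p = 0.1.

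Given as a share, miR-122-3p made up 0.359% (0.325 to 0.396), 0.270% (0.237 to 0.307) and 0.263% (0.235 to 0.294) of the reads of both arms in the NC livers. It made up 0.563% (0.531 to 0.598), 0.579% (0.550 to 0.609) and 0.398% (0.362 to 0.439) in the MAFLD livers. The counting intervals of NC replicate 1 and MAFLD replicate 3 overlapped, while those of every other pair across the groups stood apart. The guide arm held nearly all reads of the hairpin in every liver, since the largest share of the passenger arm was 0.579%.

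The arm ratio was tested with that of the other hairpins, namely the 105 for which the 5p and the 3p arm each reached a mean of 1 CPM. For miR-122 the log2 ratio changed by -0.78 (SE 0.33, 95% interval -1.55 to -0.02). Its p in limma was 0.0465 before adjustment and 0.297 after it. None of the 105 hairpins passed an adjusted p of 0.05 (0%), 17 had an unadjusted p under 0.05, and miR-122 ranked 16 by p. The major arm of a hairpin was taken as the one with more reads. The minor arm gained on the major arm in 49 of the 105 hairpins and lost in 56, with a median change of the log2 ratio of 0.05. The groups did not overlap, with the minor arm gaining, in 8 of the 105 (7.62%), and miR-122 was among these 8. MiR-9 is counted there too, although the mean of its minor arm in MAFLD lay below the floor of 3 reads. In the imbalance of its arms miR-122 ranked 12 of 105, with a mean log2 ratio of 8.01.

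Among the 6 hairpins of highest abundance, the groups did not overlap for miR-122 and overlapped for the other 5, and the differences between hairpins were not tested. The ratio of major to minor arm of miR-148a was 3819 ± 1693 in NC and 2808 ± 615 in MAFLD, and its log2 ratio changed by -0.35 (limma adjusted p = 0.718). For miR-192 the ratio was 4307 ± 1350 in NC and 3502 ± 219 in MAFLD, a log2 change of -0.21 (limma adjusted p = 0.785). The values of miR-21a were 16546 ± 11483 and 9623 ± 4752, with a log2 change of -0.56 (limma adjusted p = 0.619). The ratios of miR-30a, a hairpin with a less unequal pair of arms, were 49.4 ± 15.2 and 41.0 ± 10.1, and those of miR-143 were 1183 ± 233 and 1129 ± 134.

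Library depth moved with the arm ratio. The Pearson correlation of the log2 ratio with depth was -0.82 and the Spearman correlation was -0.83 over the 6 livers, in which the MAFLD group also holds the deepest library. In NC the ratio was 278 at 2549598 reads, 370 at 1569367 and 379 at 1336935, and in MAFLD it was 172 at 4685712 reads, 177 at 2665458 and 249.9 at 1534569. Within each group the deeper libraries thus had the lower ratios, and the part of depth in the difference between the groups was not tested.

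**Figure D2:**
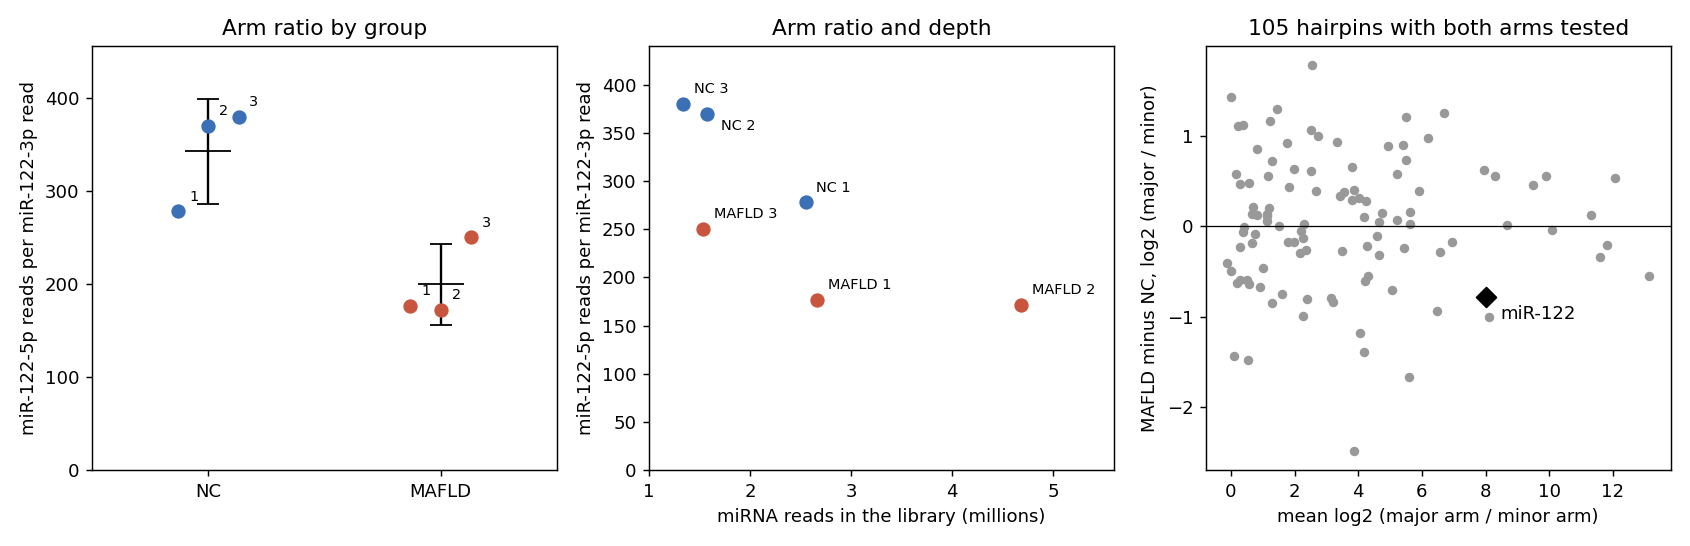
Reads of miR-122-5p per read of miR-122-3p in each liver with the mean and SD of 3 livers (left), the same ratio against the miRNA reads of the library (middle), and the MAFLD minus NC change of the log2 ratio of major to minor arm against its mean for the 105 hairpins (right). The NC livers lie between 278 and 379 and the MAFLD livers between 172 and 249.9, and miR-122 (black diamond) lies at a change of -0.78.

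By level, miR-122-5p stood among the first miRNAs of every liver. It ranked 4, 4 and 3 among all miRNAs in NC replicates 1, 2 and 3 and ranked 3 in each MAFLD liver, and the miRNAs around it were not the same in the diets. Above it by mean CPM stood miR-148a-3p (563928), miR-192-5p (77925) and miR-21a-5p (65018), and below it miR-30a-5p (29264) and miR-143-3p (21020), against 62537 for miR-122-5p itself. These are levels of reads, and because ligation favours some miRNAs over others, CPM do not order miRNAs by their molecules.

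The order of miR-21a-5p and miR-122-5p turned with the diet. The NC livers held 46038, 75409 and 96189 CPM of miR-21a-5p, above miR-122-5p in all 3, and the MAFLD livers held 68324.5, 50483 and 53666 CPM, below it in all 3. The log2 ratio of miR-21a-5p to miR-122-5p was 0.26 ± 0.19 in NC and -0.17 ± 0.15 in MAFLD (SD, n = 3 each). Its difference of -0.43 had p = 0.1 in the exact permutation test, and the log2 ratio to miR-122-5p separated in this direction for 28 of the 500 miRNAs set against it (5.6%).

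MiR-192-5p was above miR-122-5p in 2 of 3 NC livers and in all 3 MAFLD livers, with a log2 ratio of 0.19 ± 0.34 in NC and 0.47 ± 0.20 in MAFLD (exact permutation p = 0.4). MiR-148a-3p was above it in all 6 livers (3.19 ± 0.58 on the log2 scale, SD, n = 6). MiR-30a-5p was below it in all 6, with a log2 ratio of -1.29 ± 0.04 in NC and -0.93 ± 0.06 in MAFLD, groups that did not overlap (exact permutation p = 0.1). For 120 of these 500 miRNAs (24%) the log2 ratio to miR-122-5p separated in this direction. MiR-143-3p was also below it in all 6, and its ratio overlapped between the groups (-1.54 ± 0.28 in NC and -1.64 ± 0.26 in MAFLD, exact permutation p = 0.8).

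**Figure D3:**
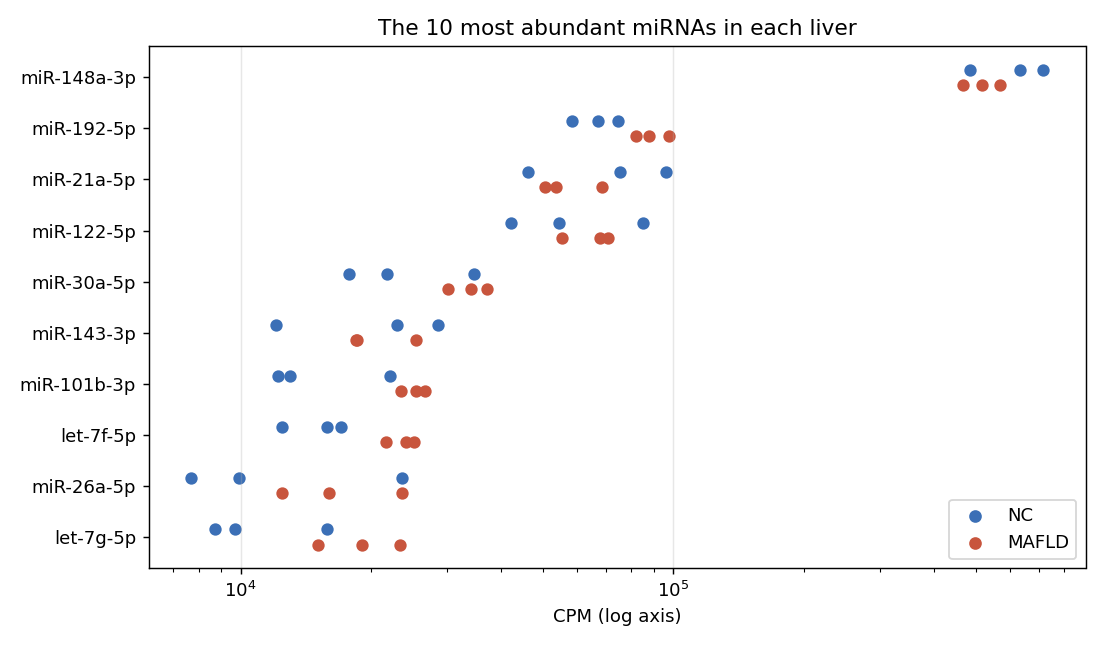
CPM of the most abundant miRNAs in each of the 6 livers, on a log axis, in the order of their mean. MiR-148a-3p is at the top of every liver, miR-192-5p, miR-21a-5p and miR-122-5p lie close together, and miR-30a-5p lies below miR-122-5p in every liver.

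The passenger arm stood far lower in the order. MiR-122-3p ranked 67, 83 and 75 in NC replicates 1, 2 and 3 and 60, 59 and 66 in the MAFLD replicates. All MAFLD livers placed it higher, though ranks 66 and 67 are adjacent. How many miRNAs separate in this way by rank was not counted, and in CPM 76 of 501 (15.2%) separated with MAFLD higher. The mean rank was 75 ± 8 in NC and 61.7 ± 3.79 in MAFLD (SD, n = 3 each). Its neighbours by mean were miR-151-3p (259 CPM) and miR-532-5p (253 CPM) above and miR-200a-3p (228 CPM) and miR-99b-5p (218 CPM) below. MiR-151-3p, at 296, 263 and 257 CPM in NC and 237, 278 and 227 CPM in MAFLD, was above miR-122-3p in all 3 NC livers and below it in all 3 MAFLD livers. Its log2 ratio to miR-122-3p was 0.66 ± 0.41 in NC and -0.41 ± 0.30 in MAFLD (exact permutation p = 0.1). MiR-532-5p was above miR-122-3p in all 3 NC livers and in 1 MAFLD liver (0.24 ± 0.12 and -0.13 ± 0.26, exact permutation p = 0.1). The ratios of both separated between the groups, lower in MAFLD, which held for 126 of the 500 miRNAs set against miR-122-3p (25.2%). MiR-200a-3p and miR-99b-5p were each above miR-122-3p in 1 NC liver and in 0 MAFLD livers, and their ratios to it overlapped between the groups.

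Set against miR-148a-3p alone, miR-122-5p was again uneven among NC livers. MiR-148a-3p was read 16.9, 11.6 and 5.70 times as often as miR-122-5p in NC replicates 1, 2 and 3 and 6.63, 10.3 and 7.62 times as often in the MAFLD livers. The MAFLD livers lay within the NC range, the log2 ratio of miR-122-5p to miR-148a-3p was higher in MAFLD by 0.37, and the exact permutation test gave p = 0.6. Leaving out single livers moved this difference between 0.02 and 0.80, with the lowest value without NC replicate 1 and the highest without NC replicate 3. The log2 ratio of miR-122-3p to miR-148a-3p was higher in MAFLD by 1.15 (exact permutation p = 0.1).

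MiR-122-5p was also set beside other miRNAs known from liver. Of a list of 12 such miRNAs, all tested, 1 rose (miR-802-5p, a hepatic miRNA raised in obesity, log2 fold change 2.60, limma adjusted p = 0.0263) and 0 fell, and it was the 1 miRNA of all 501 tested (0.2%) that passed. Their median log2 fold change was 0.77, beside 0.43 for all 501 miRNAs. The log2 ratio of miR-122-5p to these miRNAs was lower in MAFLD for 10 of the 12, with a median change of -0.62 and a range from -2.45 to 0.43, and 63.5% of all 501 miRNAs had a larger log2 fold change than miR-122-5p in the same way. MiR-148a-3p and miR-21a-5p were those against which it was higher. For miR-192-5p the CPM were 58194, 66919 and 74390 in NC and 97878.5, 88006 and 82160.5 in MAFLD. These groups did not overlap, which held for 76 of the 501 miRNAs (15.2%) in this direction. The log2 fold change of miR-192-5p was 0.43 (SE 0.22, limma adjusted p = 0.307), beside the median of 0.43 for all 501 miRNAs.

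The miRNAs whose levels went most closely with each arm over the 6 livers were sought among 237 other miRNAs whose mean reached 10 CPM, by the Pearson correlation of log2(CPM + 1). All points share their libraries' totals, and the median correlation over the 237 was 0.70 for miR-122-5p and 0.75 for miR-122-3p. For miR-122-5p the highest were miR-484 (0.98), miR-24-2-5p (0.96), miR-145a-3p (0.96), miR-148a-5p (0.96) and miR-345-3p (0.95). After median-ratio scaling 2 of these stayed high, miR-24-2-5p at 0.93 and miR-148a-5p at 0.86, while miR-484 was at 0.07, miR-145a-3p at 0.02 and miR-345-3p at -0.16. The lowest were miR-148a-3p (-0.93), miR-132-5p (-0.79) and miR-151-3p (-0.72), and after the scaling these were at 0.59, 0.60 and 0.64. The arms of miR-148a thus lay at opposite ends in CPM, the 5p arm near the top and the 3p arm at the bottom.

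For miR-122-3p the highest were miR-30c-5p (0.997), miR-126a-3p (0.997), miR-103-3p (0.99), miR-365-3p (0.98) and miR-15a-5p (0.98). These stayed between 0.88 and 0.99 after median-ratio scaling, under which the median over the 237 was 0.19. The lowest were miR-708-3p (-0.97), miR-218-5p (-0.94) and miR-9-5p (-0.93), and after the scaling they were at -0.51, -0.52 and -0.41. The miRNAs with the highest correlations were themselves higher in MAFLD, and none passed the adjusted p in limma. Their log2 fold changes were 1.07, 0.69, 0.86, 0.84 and 1.11, in the order given above. Among them miR-126a-3p, the miRNA that marks endothelial cells, had the smallest. It stood at 4562 to 6299 CPM in NC and 7327 to 9646 CPM in MAFLD (log2 fold change 0.69, limma adjusted p = 0.212).

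The label of liver tissue was checked against lists of cell-type miRNAs. The 4 hepatocyte miRNAs, which include both arms of miR-122 beside miR-192-5p and miR-194-5p and so are no separate check on miR-122, summed to 102722 to 167007 CPM in NC and 147868 to 176512 CPM in MAFLD, with 0 of 4 passing the adjusted p. The endothelial miRNAs, miR-126a-3p and miR-126a-5p, summed to 4710 to 6587 CPM in NC and 7659 to 10155 CPM in MAFLD, ranges that did not overlap. Singly, miR-126a-3p separated between the groups and miR-126a-5p overlapped. In CPM, 76 of 501 miRNAs (15.2%) separated with MAFLD higher. The part of the endothelial miRNAs in the result for miR-122-3p was not tested. The 6 leukocyte miRNAs summed to 1616 to 3061 and 2223 to 3314 CPM, and the 5 stellate or mesenchymal miRNAs to 12612 to 30033 and 19775 to 26950 CPM. Most of these sums was miR-146a-5p (log2 fold change 0.09) and miR-143-3p (0.05). The log2 fold changes of the other members were 0.37 to 1.53 for leukocytes and 0.28 to 1.29 for stellate or mesenchymal cells. The median of all 501 miRNAs was 0.43, and each member overlapped between the groups. The 3 erythroid miRNAs summed to 599 to 1202 and 427 to 982 CPM, the 3 muscle miRNAs to 51.4 to 241 and 37.1 to 229 CPM, and the 4 pancreas miRNAs to 1.57 to 6.73 and 2.63 to 9.77 CPM. No miRNA of these lists passed the adjusted p.

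The 4 brain miRNAs set NC replicates 1 and 2 apart from the other livers. They summed to 463 and 744 CPM there, to 50.1 CPM in NC replicate 3 and to 44.2 to 63.9 CPM in the MAFLD livers. Most of this was miR-9-5p, at 344 and 530 CPM in NC replicates 1 and 2, 9.72 CPM in NC replicate 3 and 4.48 to 12.4 CPM in MAFLD, while miR-124-3p was at 0 in 3 livers. The same NC livers also had the lowest CPM of miR-122-5p and of miR-122-3p among all 6, and the part of these brain miRNAs in the levels of miR-122 was not tested. They were also the only NC livers in the fit without NC replicate 3, in which miR-122-3p passed the adjusted p. With both left out, 1 NC liver remained, assumed to vary as the MAFLD livers do. The log2 fold change was then -0.41 for miR-122-5p, 0.54 for miR-122-3p and -0.95 for the arm ratio, and none passed the adjusted p in limma.

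**Figure D4:**
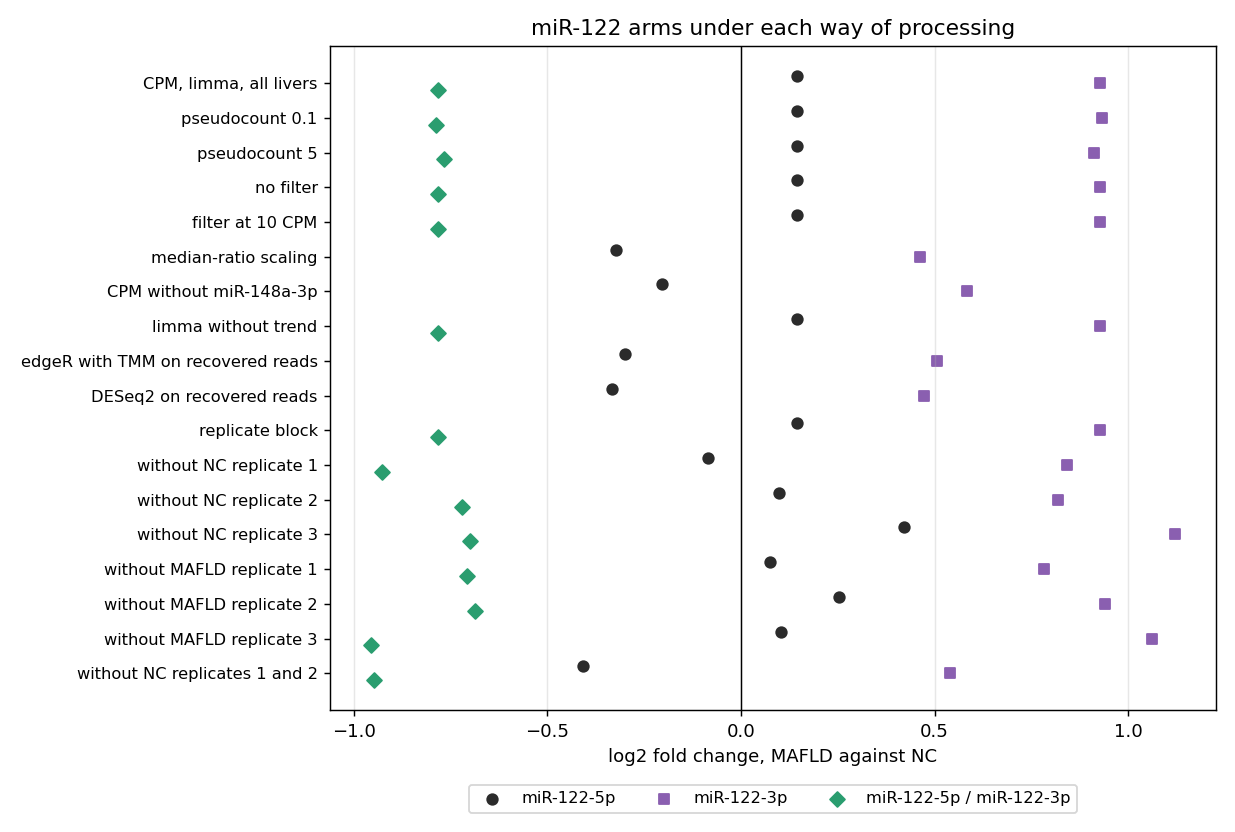
Log2 fold change (MAFLD against NC) of miR-122-5p, miR-122-3p and the ratio of the arms under each way of processing, 1 row per way, with a line at 0. MiR-122-5p (circles) falls on both sides of 0, miR-122-3p (squares) stays above it, between 0.46 and 1.12, and the ratio (diamonds) stays below it, between -0.96 and -0.69.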

How the data were processed

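The 3 NC and 3 MAFLD small RNA libraries of mouse liver were analysed, grouped by their labels. The deposited CPM values cover 1546 mature miRNAs, and the authors scaled them to the total of the listed miRNAs per library. The submitters' processing notes name FastQC, cutadapt, Bowtie, edgeR and GRCm38 without roles or versions. The protocol labels also describe HepG2 cells, but each sample is labelled as liver.

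Each library's lowest non-zero CPM was taken as 1 read, which made 100% of values whole reads within 0.02. Depth was 1336935 to 4685712 reads, and 3 reads were taken as the floor.

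limma 3.58.1 in R 4.3.3 (lmFit, eBayes with trend) was run across the 501 miRNAs whose mean reached 1 CPM, as log2(CPM + 1), and across the log2 ratio of the arms of 105 hairpins. P-values were two-sided, with Benjamini-Hochberg adjustment and a threshold of 0.05. Exact permutation tests were computed in R, except those of the ratios of neighbouring miRNAs to each arm. The latter and the Wilson intervals were computed in scipy 1.17.1. The fits were first tested on simulated data. The sources do not state that each library is 1 mouse, so p-values measure the spread between these libraries, which may be technical in part.

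Named miRNAs were both arms, other rows named miR-122, miR-148a-3p, the 2 next above and below miR-122-5p by mean (and likewise miR-122-3p, added after the values were seen), the 5 with the highest and 3 with the lowest correlation with each arm, a list of 12 liver miRNAs, cell-type lists and the 6 hairpins of highest abundance. The members and lists were chosen with earlier results of these data known.

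As alternatives, the pseudocount was set to 0.1 or 5, the minimum mean was dropped or raised to 10 CPM, and miR-148a-3p or miR-122-5p was taken out of the total. Others were scaling by median ratios, limma without trend, a replicate block, leaving out single libraries, and edgeR 4.0.16 (quasi-likelihood, TMM) and DESeq2 1.42.0 on recovered reads, which called 1 and 28 miRNAs. Leaving out NC replicates 1 and 2, and comparing the ratios of neighbouring miRNAs to each arm between the groups, were chosen after seeing the data. HepG2 cells, qRT-PCR and plasma were not analysed here.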

Additional observations from a re-analysis of the deposited data

How the results depend on the processing

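The direction of miR-122-5p (log2 fold change 0.14) turned with median-ratio scaling (-0.32), CPM without miR-148a-3p (-0.20), edgeR (-0.30), DESeq2 (-0.33) and without NC replicates 1 and 2 (-0.41). Leaving out 1 library gave -0.086 to 0.42, below 0 only without NC replicate 1, and in none of the 17 alternatives was its adjusted p under 0.05 (0.126 to 0.941). MiR-122-3p kept its direction in all 18, from 0.46 to 1.12, with adjusted p from 0.0142 to 0.786. With 1 library left out it ranged from 0.78 to 1.12 and passed only without NC replicate 3. The arm ratio kept its direction in all 14 and passed in none of the 13 with an adjusted p (0.125 to 0.720). The ratio of miR-122-5p to miR-148a-3p turned to -0.50 without NC replicates 1 and 2. The cause of these changes was not tested.

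The count of miRNAs past the adjusted p, 1 in limma on CPM, was 11 without a filter, 2 with median-ratio scaling, 2 without miR-148a-3p, 28 in DESeq2, 1 in edgeR, 0 without the trend (74 at an unadjusted p under 0.05) and 0 without NC replicates 1 and 2 (37 at an unadjusted p under 0.05). It ranged from 0 to 114 with 1 library left out, the highest without NC replicate 3. It was 0 without NC replicate 1 (56 at an unadjusted p under 0.05), NC replicate 2 (40), MAFLD replicate 1 (41) or MAFLD replicate 2 (89), and 3 without MAFLD replicate 3. At an unadjusted p under 0.05, 67 of 90 miRNAs were higher in MAFLD in CPM, 52 of 90 without miR-148a-3p and 36 of 81 after median-ratio scaling.

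With the replicate block the count was 5, miR-122-5p stood at 0.14 (adjusted p = 0.819), miR-122-3p at 0.93 (adjusted p = 0.248) and the arm ratio at -0.78 (adjusted p = 0.227) in limma. No source links same-numbered libraries across the diets, and the main fits did not pair them. Their deviations correlated at 0.01, -0.02 and -0.05, which in so few libraries cannot decide whether they were handled in pairs. The depth limits miR-122-3p, which rests on 231 to 1506 reads.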

Other observations

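Beside miR-122, further hairpins had the minor arm gaining on the major arm in MAFLD without overlap of the groups. They were miR-9, miR-1843a, miR-144, miR-127, miR-455, miR-148b and miR-574, named after their values were seen. Their log2 ratios of major to minor arm changed by -2.49, -1.67, -1.48, -1.40, -1.19, -1.0 and -0.23, in this order, and none passed the adjusted p in limma. A gain in the ratio was not always a rise of the minor arm itself. MiR-9-3p had a mean of 4.28 CPM in NC and 0.288 CPM in MAFLD, below the floor of 3 reads, and was at 0 in 2 livers. The 1 CPM added to each arm before the ratio was larger than this MAFLD mean. The change in the ratio of miR-9 therefore rests in part on the added value and is not a measured gain of miR-9-3p. MiR-127-5p had 7.97 CPM in NC and 5.45 CPM in MAFLD. In the other hairpins named, the mean CPM of the minor arm was higher in MAFLD. MiR-122 had by far the highest read level of these hairpins, with 62537 CPM for its major arm against 2602 for that of miR-148b. In the opposite direction, 13 of the 105 hairpins had groups that did not overlap, with the minor arm losing on the major arm.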
